A study of Homo sapiens with 6 samples.

Results

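Nucleophosmin and its partners were examined as 6 genes: NPM1, which the guide RNA of the study targets, its paralogs NPM2 and NPM3, the nucleolar proteins nucleolin (NCL) and fibrillarin (FBL), and the nuclear exporter exportin-1 (XPO1). They were chosen by name and not by any measured value, although earlier results of these data were known. They were taken out of 20163 protein-coding genes of GENCODE and 19666 of RefSeq. For each gene, all peaks in the gene body and the 20 kb on either side were taken from 4 deposited peak lists. Per the labels the cells were OCI-AML3, an established human acute myeloid leukemia (AML) line. Per the text of the study, its NPM1 and DNMT3A mutations are heterozygous and its NRAS mutation is homozygous. The cells had been transfected with either the control guide RNA (sgNeg) or the guide RNA against mutant NPM1 (sgNpm1A, the mtNPM1 KO). The labels give a culture of 3 days, and a longer time is given in the text of the study. H3K27Ac, a mark of active enhancers and promoters, and H3K4me3, a mark of active promoters, were profiled by ChIPmentation in 1 library per guide RNA, so that no group had a replicate, no spread could be estimated and no difference between guide RNAs was tested. The deposited H3K4me3 lists were tagged OCI3 by the submitters and the H3K27Ac lists OCI2, although OCI-AML3 is given as the line of each. The study also worked with OCI-AML2, an AML line with wild-type NPM1, and which line the H3K27Ac libraries came from was not settled.

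NPM1 is an abundant nucleolar chaperone that shuttles between nucleolus and cytoplasm and takes part in ribosome assembly and in the control of p53. NPM2 is best known from the egg, where it acts on chromatin, and NPM3 is a smaller nucleolar relative. NCL binds ribosomal DNA and pre-ribosomal RNA, and FBL is the methyltransferase of box C/D small nucleolar ribonucleoproteins (snoRNPs). XPO1 carries proteins with a nuclear export signal out of the nucleus. The mutations of AML lie in the last coding exon of NPM1 and create such a signal, so that the mutant protein is exported by XPO1 to the cytoplasm.

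The sequences just upstream of the start sites are shown because the H3K27Ac peaks of sgNeg covered them whole at all 5 genes, the sgNpm1A list covered none of their bases, and the highest sgNeg H3K4me3 promoter peak of each began only past the start. They come from a table of RefSeq promoters (build GRCh38.p14) that was matched by 5 of the 6 genes, all but NPM2, and are written 5′ to 3′ in the direction of transcription, without bases that GENCODE places in a UTR. Capitals mark matches on either strand to the E-box CACGTG, the CCAAT box CCAAT, the GC box GGGCGG, the ETS motif CCGGAAG, the NRF1 motif GCGCATGC and the TATA box TATAAA. No match overlapped another.
NPM1 (chr5:171387599-171387694, plus strand, 250 to 155 bases before the start): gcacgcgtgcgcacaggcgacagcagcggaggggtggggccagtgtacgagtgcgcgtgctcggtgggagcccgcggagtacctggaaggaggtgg
NPM3 (chr10:101783447-101783696, minus strand, 250 to 1 bases before the start): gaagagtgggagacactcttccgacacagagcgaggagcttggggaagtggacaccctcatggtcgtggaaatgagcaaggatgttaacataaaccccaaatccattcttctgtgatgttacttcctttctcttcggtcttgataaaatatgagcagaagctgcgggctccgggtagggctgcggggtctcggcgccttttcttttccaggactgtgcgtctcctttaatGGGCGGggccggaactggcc
NCL (chr2:231464552-231464734, minus strand, 250 to 68 bases before the start): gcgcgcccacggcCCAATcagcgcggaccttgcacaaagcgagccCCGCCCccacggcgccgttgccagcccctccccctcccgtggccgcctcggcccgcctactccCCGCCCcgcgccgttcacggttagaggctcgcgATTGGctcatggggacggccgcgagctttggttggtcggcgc
FBL (chr19:39846380-39846629, minus strand, 250 to 1 bases before the start): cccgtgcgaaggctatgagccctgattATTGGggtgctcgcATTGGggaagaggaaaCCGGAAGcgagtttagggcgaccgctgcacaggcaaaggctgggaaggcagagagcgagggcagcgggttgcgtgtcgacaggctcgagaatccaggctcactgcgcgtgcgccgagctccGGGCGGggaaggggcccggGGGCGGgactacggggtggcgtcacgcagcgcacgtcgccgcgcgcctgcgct
XPO1 (chr2:61538357-61538491, minus strand, 135 to 1 bases before the start): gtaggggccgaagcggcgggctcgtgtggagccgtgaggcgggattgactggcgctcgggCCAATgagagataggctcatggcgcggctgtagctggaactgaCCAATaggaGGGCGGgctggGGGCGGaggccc

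Over the whole 250 bases upstream, the GC content was 67.6% at NPM1, 53.6% at NPM3, 72.0% at NCL, 68.8% at FBL and 65.2% at XPO1. NCL, FBL and XPO1 each held 2 CCAAT boxes and 2 GC boxes, and FBL held 1 ETS motif as well. NPM3 held 1 GC box. The 250 bases before the main start of NPM1 held none of the 6 motifs. Among 35116 RefSeq promoters, 32.0% held a CCAAT box, 42.6% a GC box, 8.52% the ETS motif, 10.7% the TATA box, 6.34% the E-box and 2.63% the NRF1 motif in the same 250 bases. A match describes these letters only and is not evidence of binding.

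The lists held 327715 (sgNeg H3K27Ac), 317059 (sgNpm1A H3K27Ac), 353628 (sgNeg H3K4me3) and 106641 (sgNpm1A H3K4me3) peaks. The H3K27Ac lists are on GRCh37 and the H3K4me3 lists on GRCh38, so positions were compared within a mark, and across marks only as distances from the same start site. Sequencing depth is unknown. Fold enrichment is scaled within each list, and each peak is therefore given its percentile or rank by fold within its own list. Of 9 myeloid markers, 9 had a promoter peak in sgNeg H3K27Ac and 6 in sgNpm1A H3K27Ac, with median percentiles of 94.8 and 34.8, and 5 and 2 had one in the H3K4me3 lists. Of 8 markers of other cells the numbers were 6 and 5 for H3K27Ac, with medians of 20.6 and 27.9, and 1 and 2 for H3K4me3. CEBPA, a factor that defines the myeloid line, had a percentile of 99.8 in sgNeg H3K27Ac, while LYZ, CSF1R, ITGAM and FCGR1A had no sgNeg H3K4me3 promoter peak.

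All 6 genes had a promoter peak, within 1 kb of an annotated transcript start, in sgNeg for both marks. The background was high: 79.1% of all protein-coding promoters had one in sgNeg H3K27Ac and 67.5% in sgNeg H3K4me3. More starts were searched for H3K27Ac (146567, GENCODE) than for H3K4me3 (25999, RefSeq). Promoter peak counts, and peaks found for only 1 mark, are therefore not comparable between the marks. In sgNpm1A, 4 of the 6 genes had an H3K27Ac promoter peak, against 57.0% of all promoters. In sgNpm1A H3K4me3 1 of 6 did, NPM2, against 9.17% of all promoters. The median percentile of the 6 genes, with 0 for no peak, was 98.4 in sgNeg and 36.5 in sgNpm1A for H3K27Ac, and 99.4 and 0.0 for H3K4me3. The sgNpm1A H3K27Ac median was 63.9 with 2 kb on either side of the starts and 0.0 for peaks with q-values under 0.01. Over all promoters the medians were 92.4 and 23.0 for H3K27Ac, and 85.2 and 0.0 for H3K4me3. Over only the promoters with a peak in the list they were 96.4 and 69.1 for H3K27Ac, and 97.2 and 60.5 for H3K4me3. The sgNeg medians of the 6 genes, which all had a peak, were thus close to those of other promoters with one.

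**Figure D1:**
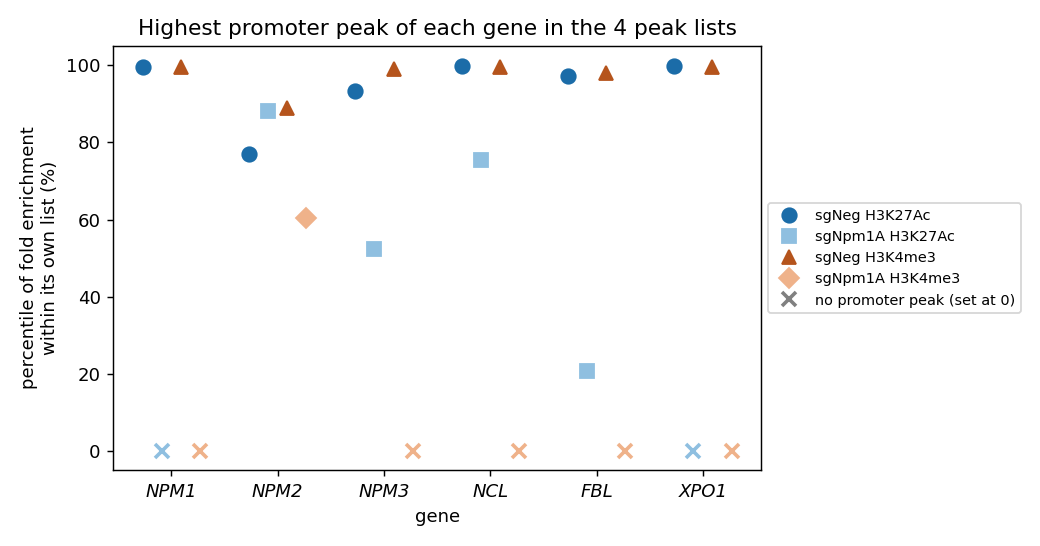
Percentile (y axis, percent) of the promoter peak with the highest fold enrichment of each gene (x axis) within each of the 4 peak lists, 1 library each, where a cross at 0 stands for no promoter peak. NPM1, NCL, FBL and XPO1 lie at or above 97.3 in both sgNeg lists, whereas NPM1 and XPO1 have a cross in both sgNpm1A lists.

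The guide target NPM1 (GRCh37 chr5:170814120-170838814, plus strand) had a broad H3K27Ac promoter peak in sgNeg, at chr5:170813442-170816399. It was 2958 bp wide, had a fold enrichment of 7.02 and ranked 1257 of 327715. It ran from 1411 bp before to 1546 bp past the main start. The sgNpm1A list held no peak within 1 kb of any of the 23 annotated starts of NPM1. The nearest sgNpm1A H3K27Ac peak lay 3105 bp past the main start, in the gene body, and was 214 bp wide with a fold of 3.64. With 2 kb on either side of the starts it would have counted as a promoter peak, so the absence depends on that distance.

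For H3K4me3, NPM1 (GRCh38 chr5:171387116-171410900) had a sgNeg promoter peak at chr5:171387993-171390649, from 144 to 2800 bp past the main start. Its fold of 10.6, a pileup of 50 fragments at the summit, ranked 1318 of 353628, and its width of 2657 bp ranked 218. No sgNpm1A H3K4me3 peak lay within 34236 bp of the start. The NPM1 window held 9 sgNeg and 3 sgNpm1A H3K4me3 peaks, and the 3 of sgNpm1A lay past the gene, 34236 to 40069 bp from the start. The lowest pileup anywhere in the sgNpm1A H3K4me3 list was 10 fragments, so that fewer fragments at a promoter would not have been listed.

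The highest peak of the NPM1 window in sgNeg was at the other end of the gene, over the last coding exon. For H3K27Ac it was at chr5:170837476-170838293, 818 bp wide, with a fold of 13.3, and ranked 37 of 327715. The H3K27Ac fold is an average over the peak and not a summit value. By width this peak ranked 66599. It covered exon 11 of the canonical transcript (chr5:170837531-170837904, of which 170837531 to 170837566 is coding) with 55 bp before and 389 bp past it. Of the 11 exons, 2 were touched by a sgNeg H3K27Ac peak, exon 1 and exon 11, and both were covered whole. No exon was touched by a sgNpm1A H3K27Ac peak. The cut position of the guide RNA was not given in the sources used here, and the last coding exon was taken as its region because the mutations lie there. For a knock-in in OCI-AML2, the methods of the study also describe a double-stranded DNA donor with arms homologous to the mutation site. The part of such DNA in the peak over exon 11 was not tested.

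A sgNeg H3K4me3 peak lay at the same distance from the start. It was 414 bp wide, at GRCh38 chr5:171410869-171411282, with a fold of 11.6 (55 fragments) and rank 783 of 353628. It began 31 bp before the end of the gene record and went 382 bp past it. In distance from the main start it ran from 23020 to 23433 bp, and the H3K27Ac peak from 22623 to 23440 bp, so that their far ends nearly coincided and the H3K4me3 peak covered the part past the coding bases. The end of exon 11 on GRCh37 and that of the gene record on GRCh38 were both 23051 bp from the main start. No sgNpm1A peak of either mark lay within 500 bp of exon 11 or of the end of the gene record, and no protein-coding start was within 2 kb of these windows.

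Peaks at gene ends were common, but rarely this high. Of 11332 gene ends that lay over 2 kb from any protein-coding start, 46.0% had a peak within 500 bp of the last coding exon in sgNeg H3K27Ac and 43.3% in sgNpm1A H3K27Ac. The NPM1 peak had the third highest fold among the sgNeg ends, since 3 of the 11332 ends, NPM1 included, reached 13.3. The other 2 were ISL2 and SCAPER, both on chromosome 15 and with the same fold of 13.6, so that 1 peak may have counted at both ends. For H3K4me3, where the end of the gene record was used, 19.9% of 16615 ends had a peak in sgNeg and 8.84% in sgNpm1A, and 10 ends, NPM1 included, reached 11.6. Of the 36 sgNeg H3K27Ac peaks with a higher fold than the NPM1 end, 6 were at a promoter. Of the 782 such H3K4me3 peaks, 622 were at a promoter.

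NCL, FBL and XPO1 had none at the gene end in any list. NPM2 had peaks there in all 4 lists, with percentiles of 76.9 (sgNeg) and 75.7 (sgNpm1A) for H3K27Ac. These H3K27Ac peaks also lay within 1 kb of an annotated NPM2 start and counted as promoter peaks, so they are not particular to the gene end. For H3K4me3 the NPM2 end was at percentile 85.2 in sgNeg. In sgNpm1A it was at 98.6, with a fold of 5.85 from 22 fragments and rank 1244, and 34 of the 16615 ends reached that fold. At NPM3, which is only 2122 bp long, the gene end was reached by the promoter peaks. Processed copies of NPM1 rarely had a peak. Of 49 NPM1 pseudogenes on GRCh37, 1 had a sgNeg H3K27Ac peak, with a fold of 2.77, against 17.2% of all 10587 processed pseudogenes, and 0 had a sgNpm1A peak, against 16.5%. Of 50 NPM1 pseudogenes on GRCh38, 0 had an H3K4me3 peak of either guide RNA, against 13.3% (sgNeg) and 5.64% (sgNpm1A) of all 17051 pseudogenes. Reads that fit several copies may have been dropped by the aligner, whose settings for them are not given in the sources used here.

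**Figure D2:**
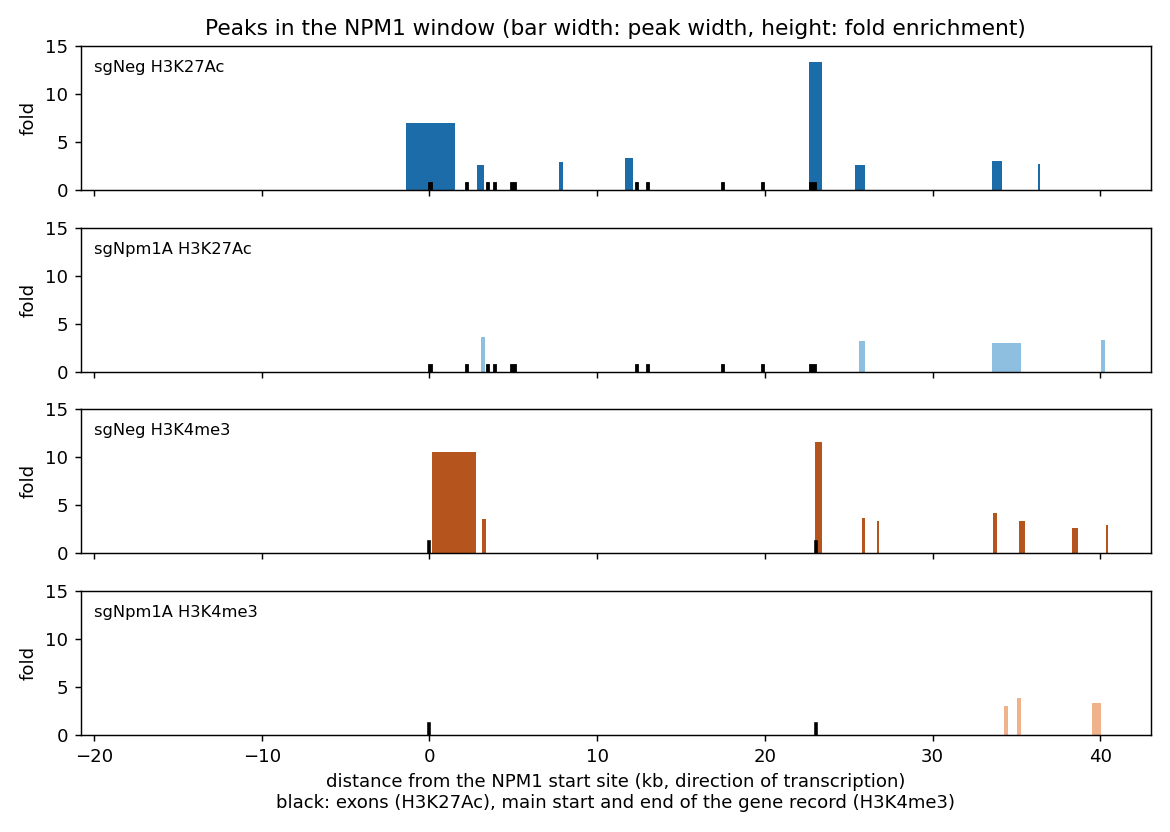
Peaks of the 4 lists in the NPM1 window, by distance from the main start in kb (x axis) and fold enrichment (y axis, on each list's own scale). Black marks show the 11 exons in the H3K27Ac panels, and the main start and the end of the gene record in the H3K4me3 panels. In both sgNeg lists the peaks near the start and near the end of the gene are the highest, and neither has a counterpart in sgNpm1A.

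XPO1, the exporter of the mutant protein, had the pattern closest to NPM1 among the other 57 genes of the 6 and of the partner lists described further on. The summed difference of its percentiles over the 4 lists was 0.315 points, the next being CTCF with 0.445 and RAN with 0.511 points. The measure resolves little, since both sgNpm1A terms are 0 and both sgNeg terms near the top of the scale. It also depends on the 1 kb limit. With 2 kb on either side of the starts, NPM1 had a sgNpm1A H3K27Ac promoter peak, with a fold of 3.64 and a percentile of 94.2. Of 19100 genes found in both annotations, 97 (0.508%) lay as near to NPM1 as XPO1 did. Its sgNeg H3K27Ac promoter peak (GRCh37 chr2:61763359-61767243) was 3885 bp wide, had a fold of 8.66 and ranked 359. Its sgNeg H3K4me3 promoter peak (GRCh38 chr2:61535618-61538256) had a fold of 10.8 (51 fragments), ranked 1183 by fold and 224 by width. Both XPO1 and NPM1 lacked a promoter peak in both sgNpm1A lists. In sgNpm1A H3K27Ac the nearest peak to the XPO1 start lay 3350 bp upstream, was 189 bp wide and had a fold of 3.37, and in sgNpm1A H3K4me3 the nearest lay 65206 bp away.

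NCL had the sgNeg H3K27Ac promoter peak with the second highest rank of the 6 genes, 407, at GRCh37 chr2:232328108-232330471, 2364 bp wide with a fold of 8.48. Its sgNeg H3K4me3 promoter peak (GRCh38 chr2:231462601-231464432, 1832 bp) had the same fold as that of NPM1, 10.6, and shared its rank of 1318. In sgNpm1A H3K27Ac the only NCL promoter peaks were at other starts. One was 825 bp wide with a fold of 2.87 and began 1393 bp past the main start. The other was 193 bp wide with a fold of 3.18. It lay 19413 bp before the main start, within 1 kb of the start of the GENCODE gene record. No peak touched the 1 kb on either side of the main start in sgNpm1A.

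FBL had a lower sgNeg peak in both marks. Its H3K27Ac peak (GRCh37 chr19:40336141-40337373) was 1233 bp wide, had a fold of 4.39 and ranked 8977. Its H3K4me3 peak (GRCh38 chr19:39844948-39846347, 1400 bp) had a fold of 6.66, from 31 fragments, and ranked 7245. The single sgNpm1A H3K27Ac promoter peak of FBL lay 8419 bp past the main start, at an internal start, with a fold of 2.75 and a percentile of 20.6. As at NCL and XPO1, the window held 0 sgNpm1A H3K4me3 peaks.

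NPM3 and NPM2 were the genes with a sgNpm1A H3K27Ac peak near the main start. At NPM3 the sgNeg H3K27Ac peak (GRCh37 chr10:103541166-103544394) was 3229 bp wide with a fold of 3.54, percentile 93.4, and ran from 1191 bp before to 2037 bp past the start, over nearly the whole gene. The sgNpm1A peak was 1135 bp wide with a fold of 2.96, percentile 52.4, and lay from 497 to 1631 bp past the start. The H3K4me3 peak of NPM3 was the fourth highest of the 6 genes in sgNeg, with a fold of 8.94 (42 fragments), percentile 99.1, and had no counterpart in sgNpm1A, where the nearest peak lay 6060 bp away.

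NPM2 (GRCh37 chr8:21881636-21894408), a gene of the egg rather than of blood, stood apart from the other 5. Its distances were taken from the start of the gene record, and on GRCh37 the start of its canonical transcript lies 9 bp past that, with the same highest peaks within 1 kb. The H3K27Ac peaks within 1 kb of the record start were low with both guide RNAs. In sgNeg the higher one was 1623 bp wide with a fold of 2.87 and a percentile of 62.3, and in sgNpm1A it was 1395 bp wide with a fold of 3.00 and a percentile of 58.4. Its sgNeg H3K4me3 promoter held 3 narrow peaks, the highest 428 bp wide with a fold of 4.37, from 20 fragments, at percentile 88.8. In sgNpm1A H3K4me3 there was 1 wider peak of 1474 bp across the start, with a fold of 3.82, from 14 fragments, at percentile 60.5. The peaks of that whole list were also wider, with a median of 407 bp and a narrowest of 245 bp. In sgNeg H3K4me3 these were 192 and 110 bp. At other starts of NPM2, under peaks that began 12186 and 9034 bp past the record start, the highest H3K27Ac folds were 3.03 in sgNeg and 3.41 in sgNpm1A.

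**Figure D3:**
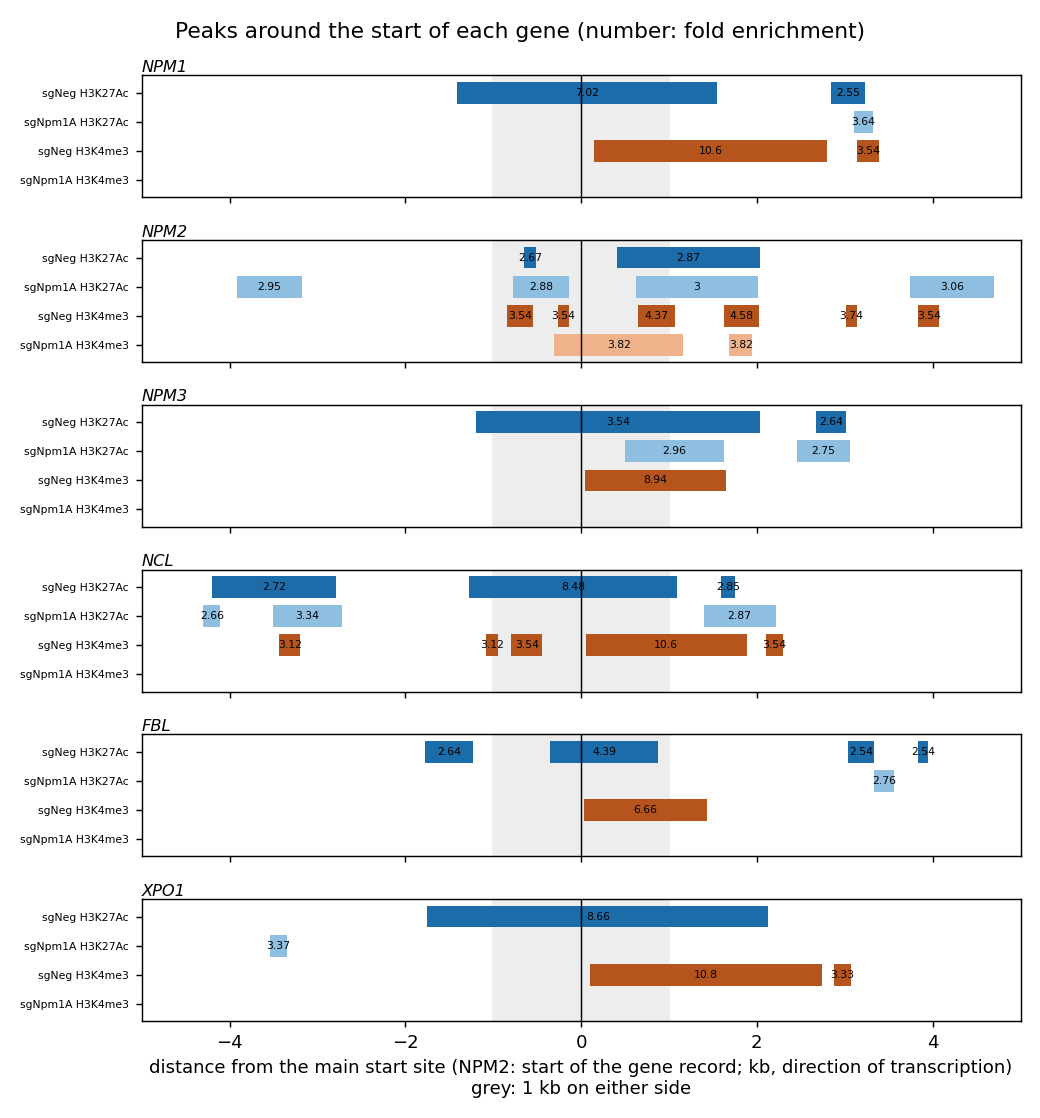
Extent of all listed peaks within 5 kb of the main start of each gene (for NPM2, of the start of its gene record), by distance from the start in kb (x axis), 1 row per list, with the fold enrichment written in each bar. The highest sgNeg H3K27Ac peaks of NPM1, NPM3, NCL, FBL and XPO1 span the start, their highest sgNeg H3K4me3 peak begins just past it, and the sgNpm1A H3K4me3 row is empty for these 5 genes.

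At the main start alone, all 6 genes had a sgNeg peak of either mark, against 71.4% of all main starts for H3K27Ac and 65.6% for H3K4me3. In sgNpm1A 2 of 6, NPM2 and NPM3, had an H3K27Ac peak there, against 32.4%, and 1 of 6, NPM2, had an H3K4me3 peak, against 7.76%. The edges of the sgNeg peaks were shared by 5 of the genes. The highest H3K4me3 promoter peaks of FBL, NPM3, NCL, XPO1 and NPM1 began 32, 47, 52, 100 and 144 bp past the start, and extended to between 1431 and 2800 bp. Such an edge, within 200 bp past the main start, was seen at 44.0% of the 12894 main starts with a sgNeg H3K4me3 peak. In contrast, the highest H3K27Ac promoter peaks of these 5 genes began 354 to 1752 bp before the start, and 82.7% of the 14388 main starts with a sgNeg H3K27Ac peak had an edge at or before the start.

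The absence of a sgNpm1A peak was set against all promoters with a sgNeg peak. For H3K27Ac, 2 of the 6 genes lacked a promoter peak in sgNpm1A, against 34.0% of the 15950 promoters with a sgNeg peak. Among the 3 genes at or above percentile 99 in sgNeg (NPM1, NCL and XPO1) 2 lacked one, against 41.8% of 3104 such promoters. For H3K4me3, 5 of 6 genes lacked one, against 88.9% of 13280, and so did all 4 genes at or above percentile 99 (NPM1, NPM3, NCL and XPO1), against 96.1% of 3081. The H3K4me3 absence at NPM1, NPM3, NCL, FBL and XPO1 was also seen at most promoters with a sgNeg peak in this pair of libraries. No H3K27Ac promoter peak of the 6 genes in sgNpm1A had a q-value under 1e-05, and 0.908% of the peaks in that list did, against 2.88% in sgNeg.

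The whole windows held 68 sgNeg and 45 sgNpm1A H3K27Ac peaks, and 74 and 19 H3K4me3 peaks. The share of bases under H3K27Ac peaks was 9.54% in sgNeg and 3.91% in sgNpm1A at NPM1, 8.97% and 1.39% at XPO1, 10.3% and 3.81% at NCL, 19.6% and 10.0% at FBL and 14.0% and 11.0% at NPM3. NPM2 alone had the larger share in sgNpm1A, 43.6% against 36.5% in sgNeg. The sgNpm1A over sgNeg ratio of covered bases was 0.155 at XPO1, 0.372 at NCL, 0.41 at NPM1, 0.512 at FBL, 0.784 at NPM3 and 1.19 at NPM2, and 0.884 over the whole lists. For H3K4me3 the ratio was 0.236 at NPM1, 0.217 at NPM3, 0.622 at NPM2 and 0 at NCL, FBL and XPO1, and 0.591 over the whole lists. The whole lists are not a matched comparison. No ratio was taken over the windows of other genes with high sgNeg promoter peaks.

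**Figure D4:**
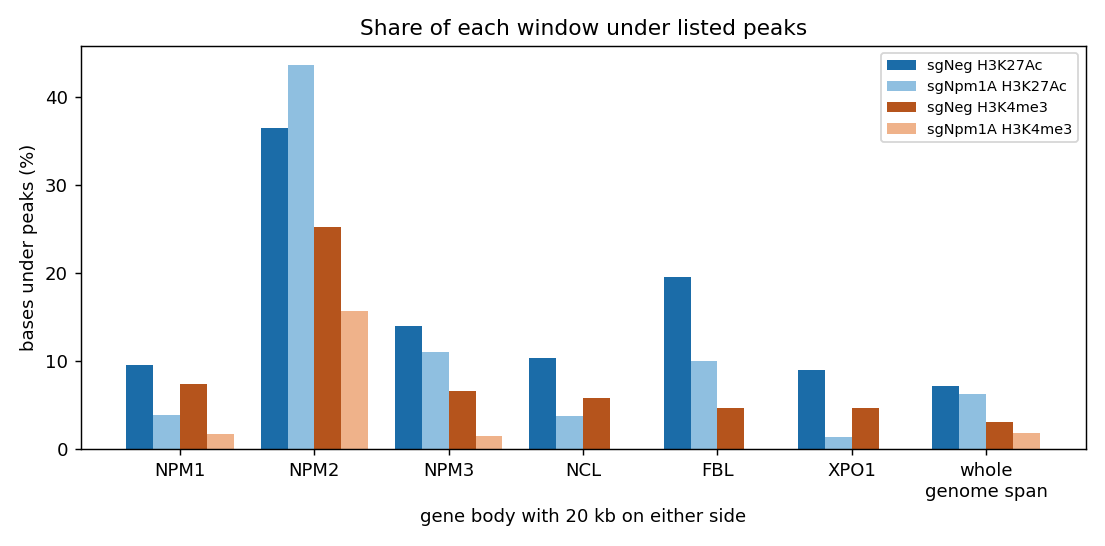
Bases under listed peaks (y axis, percent) in the window of each gene and, at the right, over the span of all chromosomes, with 1 bar per list. NPM2 has the tallest bar in each list, and the sgNpm1A H3K4me3 bars of NCL, FBL and XPO1 are at 0.

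NPM2 lies on the chromosome densest in peaks. In sgNeg, chromosome 8 had 2.33 times the H3K27Ac and 3.16 times the H3K4me3 peaks per Mb of the whole list, and in sgNpm1A 2.39 and 3.68 times, the highest of the 24 chromosomes in all 4 lists. Chromosome 5, with NPM1, had 1.40 and 1.75 times in sgNeg and 1.40 and 2.02 times in sgNpm1A. Chromosome 2, with NCL and XPO1, was below the whole in all 4 lists, at 0.643 to 0.895 times. The part of these densities in the values of NPM2, NPM1 and DKC1 was not tested.

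The overlap of peaks between the 2 guide RNAs was counted in the windows and in the whole lists. Of the 68 sgNeg H3K27Ac peaks 44.1% were touched by a sgNpm1A peak, against 50.7% of the whole list. The share was lowest at XPO1, 1 of 9, and highest at NPM2, 14 of 17. Of the 74 sgNeg H3K4me3 peaks 21.6% were touched, against 22.6% of the whole list, and of these 16 peaks 14 were at NPM2.

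The 3 nucleophosmin genes shared their neighbours, a feature picked after the values were seen. FGF18 lies next to NPM1, FGF17 next to NPM2 and FGF8 next to NPM3, each a member of the same subfamily of fibroblast growth factors. The promoter of FGF18 had no peak in any list, and its record began 8.75 kb past that of NPM1 on GRCh38. FGF8, 0.954 kb from NPM3 on GRCh37, had H3K27Ac promoter peaks at percentiles of 26.9 in sgNeg and 20.8 in sgNpm1A, and no H3K4me3 promoter peak. It was searched at 6 starts for H3K27Ac but at 1 for H3K4me3. FGF17 had H3K27Ac promoter peaks at 93.8 and 95.2, and H3K4me3 peaks at 62.6 and 25.6. At the other side of XPO1, the window held 2 of the 22 annotated USP34 starts on GRCh37, with a percentile of 99.5 in sgNeg H3K27Ac and of 99.2 in sgNeg H3K4me3, and no peak there in either sgNpm1A list.

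Other genes of the nucleolus, of nuclear export and of NPM1 function were looked up in 4 lists. One list held 14 snoRNP and nucleolar core genes, which modify and fold pre-ribosomal RNA beside FBL. In sgNeg H3K27Ac 14 of them had a promoter peak (all promoters: 79.1%) and in sgNpm1A 8 (57.0%), with median percentiles of 98.3 and 14.7. For H3K4me3, 13 had one in sgNeg (67.5%), with a median of 98.5, and 0 in sgNpm1A (9.17%). These are the highest peaks at any start of a gene, and the starts could differ between guide RNAs. The highest sgNeg H3K27Ac promoter peak was itself touched by a sgNpm1A peak at 43.2% of the 15950 promoters with one, at 2 of the 6 genes (NPM2 and NPM3) and at 4 of these 14. For H3K4me3 the share was 6.85% of 13280, at 1 of the 6 genes (NPM2) and at 0 of these 13. NOP56, a partner of FBL in box C/D snoRNPs, had the highest sgNeg H3K4me3 percentile of the list, 99.8, and percentiles of 98.8 and 39.6 in the H3K27Ac lists. SNU13, which binds the same RNAs, had no sgNeg H3K4me3 promoter peak but a H3K27Ac percentile of 99.8 in sgNeg and of 20.6 in sgNpm1A, in peaks 0.986 kb apart.

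Of 11 RNA polymerase I machinery genes, 11 and 8 had an H3K27Ac promoter peak in sgNeg and sgNpm1A (all promoters: 79.1% and 57.0%). The medians were 96.8 and 41.1. For H3K4me3, 10 and 0 had one (all promoters: 67.5% and 9.17%), with a sgNeg median of 98.3. UBTF, the factor that keeps ribosomal genes open, was highest, with 99.6 for sgNeg H3K4me3 and 99.7 and 71.3 for H3K27Ac. The highest sgNeg H3K27Ac promoter peak was touched by a sgNpm1A peak at 6 of the 11, against 43.2% of all promoters with one. RRN3, which brings the polymerase to its promoter, had no sgNeg H3K4me3 promoter peak and a H3K27Ac percentile of 70.8 in sgNeg alone. RRN3 has near-identical partial copies in the genome, so its value is uncertain.

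Another list held 17 exporters and genes of the Ran cycle, which drives transport by XPO1. Of these, 17 and 13 had an H3K27Ac promoter peak (all promoters: 79.1% and 57.0%), with medians of 99.0 and 59.5. For H3K4me3, 17 and 0 had one (all promoters: 67.5% and 9.17%), with a sgNeg median of 99.2. XPO7, another exporter, was highest for sgNeg H3K4me3 at 99.8, and had H3K27Ac percentiles of 99.2 and 93.4, the latter in a peak 481 bp wide at another start, 41.8 kb away. RANBP2, a nuclear pore protein, was lowest for sgNeg H3K4me3 at 94.4, with 98.4 and 6.63 for H3K27Ac. RAN, KPNA2, CSE1L and XPO4 were the genes of this list that lacked a sgNpm1A H3K27Ac promoter peak at any start, as XPO1 did. Of all promoters with a sgNeg H3K27Ac peak, 34.0% lacked one in sgNpm1A. The highest sgNeg H3K27Ac promoter peak was touched by a sgNpm1A peak at 7 of the 17, against 43.2% of all promoters with one.

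Of 10 regulators bound by NPM1, 10 and 5 had an H3K27Ac promoter peak (all promoters: 79.1% and 57.0%), with medians of 99.2 and 10.2. For H3K4me3, 10 and 0 had one (all promoters: 67.5% and 9.17%), with a sgNeg median of 99.3. FBXW7, the ubiquitin ligase adaptor that degrades MYC, was highest for sgNeg H3K4me3 at 99.9, with H3K27Ac percentiles of 99.4 and 78.8, the latter in a peak 140 bp wide at another start, 182 kb away. The highest sgNeg H3K27Ac promoter peak was touched by a sgNpm1A peak at 2 of the 10, against 43.2% of all promoters with one. CDKN2A, whose ARF product is held in the nucleolus by NPM1, was lowest at 85.2, with a H3K27Ac percentile of 96.0 in sgNeg and no peak in sgNpm1A. The 0 of 52 partner promoters with a sgNpm1A H3K4me3 peak stand beside 9.17% of all promoters. These genes differ from the average promoter in their sgNeg level as well. Of all promoters with a sgNeg H3K4me3 peak, 88.9% lacked one in sgNpm1A. Among those at or above percentile 99 in sgNeg, 96.1% lacked one, so few sgNpm1A peaks were also the rule at promoters with a high sgNeg peak.

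**Figure D5:**
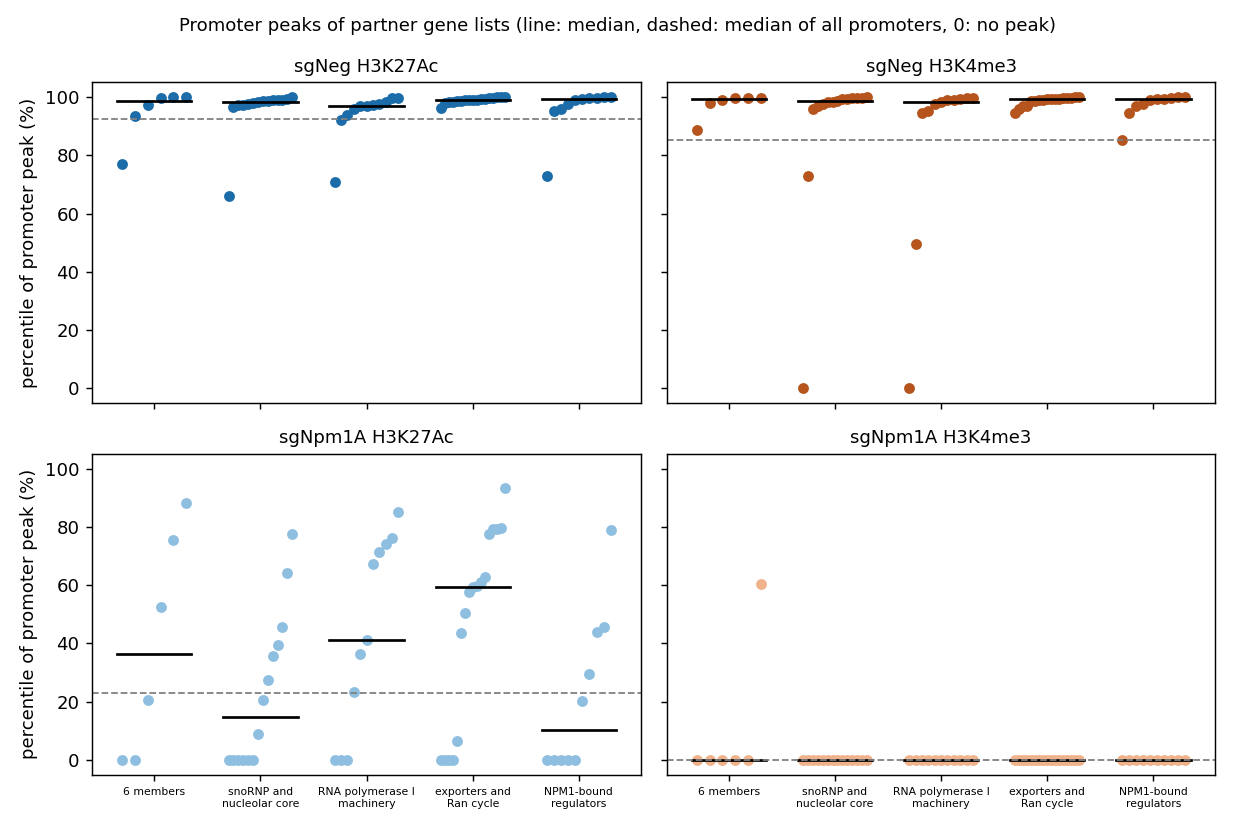
Percentile of the promoter peak (y axis, percent, 0 for no peak) of the 6 genes and of the genes of 4 partner lists (x axis), 1 panel per peak list, with the median of each group as a line and the median of all promoters dashed. All groups have a median of at least 96.8 in both sgNeg panels, and in the sgNpm1A H3K4me3 panel every point but that of NPM2 is at 0.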

How the data were processed

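Peak lists of 4 ChIPmentation libraries were used, and 2 inputs were not analysed here. Per the submitters' processing notes the authors used bcl2fastq 2.17, Trimmomatic 0.33, Bowtie 1.1.2, MACS2 2.1.0 and deepTools, and the notes name hg38. Peaks of the H3K27Ac lists passed the end of chromosome 1 of hg38 (last end 249218478), and these lists are on GRCh37. The use of inputs, the calling limit and any Tn5 cut shift, which moves peak edges by a few bases, were not stated. The deposited fold enrichment is a ratio to background, given by the authors at the summit (H3K4me3) or averaged over the peak (H3K27Ac). Deposited q-values (as −log10) gave the thresholds, deposited p-values (as −log10) an alternative rank, and the deposited score was not used. In the H3K4me3 lists every fold was a whole pileup plus 1 over a constant background (within 0.02), 1 fragment being worth 0.208 in sgNeg and 0.254 in sgNpm1A.

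The members, partner lists and motifs were chosen with earlier results of these data known. Groups came from the sample titles. A promoter was 1 kb on either side of any transcript start, with an overlap of at least 1 bp. Starts came from GENCODE 44 mapped to GRCh37 (146567 starts) and from RefSeq for GRCh38 (25999 starts). In RefSeq, 15842 genes had starts from the promoter table and 3824 the gene record start only. NPM2 was among the latter, and its distances refer to the record start in both builds. The 371 genes without a strand were left out. Main starts were those of the canonical transcript (GRCh37) and the first RefSeq start (GRCh38). The RefSeq promoters of 5 members matched GRCh37 exactly once, so distances refer to the same start in both builds. Percentiles use average ranks for ties. The genes named from each list were those with the highest and the lowest sgNeg H3K4me3 percentile and those with a sgNpm1A H3K4me3 peak, and the gene nearest to NPM1 by summed percentile differences. DKC1 was named for its chromosome. Python 3.11.15 with pandas 2.3.3 and numpy 2.4.6 was used, and overlaps and ranks were tested on simulated data. With 1 library per group there was no test, and alternatives of promoter width, start, overlap, rank, flank and q-value were tried.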

Additional observations from a re-analysis of the deposited data

How the results depend on the processing

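Of 76 alternatives, 60 left the value within 1.5 times and, for medians, within the range of the 6 genes, and 16 did not. In sgNpm1A H3K27Ac, the 4 genes with a promoter peak became 2 with q-values under 0.01, 0 with q-values under 1e-05 and 2 at the main start alone, an alternative chosen after seeing the data. The NPM1 fold there went from 0 to 3.64 with 2 kb on either side. In sgNpm1A H3K4me3, the 1 gene with a promoter peak became 0 with q-values under 1e-05. The median percentile of the 6 genes in sgNpm1A H3K27Ac went from 36.5 to 63.9 with 2 kb on either side, to 63.3 ranked by width and to 0 with q-values under 0.01. The median share of the windows under peaks was 12.1% in sgNeg H3K27Ac and became 7.48% (q-value under 0.01) and 3.7% (under 1e-05). In sgNpm1A H3K27Ac it went from 6.97% to 1.61% and 0 under the same limits. With q-values under 1e-05 it went from 6.24% to 4.17% in sgNeg H3K4me3, and in sgNpm1A H3K4me3 from 0.719% to 0, as it did with 10 kb on either side. Ranked by width, the sgNeg H3K4me3 median percentile was 99.6 instead of 99.4. The stricter limits leave fewer peaks by construction. No paired analysis was possible because each group had 1 library and no difference was tested. Unknown depth limits every absence to the peaks listed.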
